A study of Mus musculus with 13 samples.

Results

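The B cell and plasma cell transcription factors described here are genes known for building, keeping or ending B cell identity: Pax5, Ebf1, Spib, Pou2af1, Bcl11a, Bcl6, Irf4, Irf8, Prdm1 and Xbp1. They were chosen by name, 10 of 57010 genes, and all 10 were found in the gene lists of both kits. Single immune cells of mice had been labelled by split-pool combinatorial barcoding (Parse Biosciences), which tags transcripts inside fixed cells through rounds of pooling, and counted as unique molecular identifiers (UMIs). The Parse WT library pooled 20 tissue samples and was split into 9 sublibraries, and the Parse Mini library held 4 further thymic samples in 2 sublibraries. In both kits the thymic samples were the separated lobes of 2 female C57BL/6N mice aged 2 months, so the 4 samples of a kit come from 2 mice. The other 16 WT samples were unrelated, non-thymic samples that filled the kit. The labels give thymus and spleen, control and chronic stress for the pooled library as a whole, without assigning a tissue or treatment to any of the 16. The cell table names them CVS_C, CVS_S and YD_C with a number, the labels used here do not say what these names mean, and no comparison between the names was made.

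Pax5 and Ebf1 are known as the factors that commit a progenitor to the B lineage and hold it there, Spib is an ETS factor and Pou2af1 (OCA-B) a coactivator of octamer-binding proteins, and Bcl11a is needed for early B cells and for plasmacytoid dendritic cells. Bcl6 is the repressor that defines the germinal centre and is also used by follicular helper T cells and thymocytes, while Irf8 and Irf4 are sister interferon regulatory factors used in different amounts by B cells, plasma cells and dendritic cells. Prdm1 (Blimp-1) shuts down the B cell programme in plasma cells, and Xbp1, which is activated by the unfolded protein response, builds the secretory pathway there.

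All 10 genes are protein coding, and their positions are given on the mouse build GRCm38 (GENCODE M21). Pax5 lies at chr4:44524757-44710487 (minus strand), Ebf1 at chr11:44617317-45008091 (plus), Spib at chr7:44525993-44532071 (minus) and Pou2af1 at chr9:51213708-51240080 (plus). Bcl11a lies at chr11:24078056-24174123 (plus), Bcl6 at chr16:23965052-23988852 (minus) and Irf4 at chr13:30749226-30766976 (plus). Irf8 lies at chr8:120736358-120756694 (plus), Prdm1 at chr10:44437177-44528501 (minus) and Xbp1 at chr11:5520659-5525893 (plus).

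Promoters from RefSeq (GRCm38.p6, 250 bases before to 50 after each gene's start) were found for all 10 genes, 13 promoters in all since Irf8, Ebf1 and Bcl6 have 2 starts each, and were searched on both strands for 6 short motifs. The 3 printed here are examples of promoters that held a match, with the matched bases in capitals, and the other promoters with a match are named after them. In the Pou2af1 promoter (chr9:51213440-51213739, plus strand) the capitals mark TGACGTGG, the unfolded protein response element, 61 bases upstream of the start. In the Spib promoter (chr7:44532022-44532321, minus strand) they mark 2 overlapping copies of CCCNNGGG, the half-site pair of EBF factors, 65 and 64 bases upstream. In the promoter of the second Bcl6 start (chr16:23981234-23981533, minus strand) they mark TTCNNNGAA, the STAT element, 168, 122 and 88 bases upstream, and the ETS-IRF composite element 28 bases upstream.
Pou2af1: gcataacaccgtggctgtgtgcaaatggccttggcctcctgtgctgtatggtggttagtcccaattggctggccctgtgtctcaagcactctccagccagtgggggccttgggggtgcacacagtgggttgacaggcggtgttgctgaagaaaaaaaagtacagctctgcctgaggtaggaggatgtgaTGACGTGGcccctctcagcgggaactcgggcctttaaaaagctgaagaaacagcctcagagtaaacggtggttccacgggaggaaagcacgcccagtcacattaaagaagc
Spib: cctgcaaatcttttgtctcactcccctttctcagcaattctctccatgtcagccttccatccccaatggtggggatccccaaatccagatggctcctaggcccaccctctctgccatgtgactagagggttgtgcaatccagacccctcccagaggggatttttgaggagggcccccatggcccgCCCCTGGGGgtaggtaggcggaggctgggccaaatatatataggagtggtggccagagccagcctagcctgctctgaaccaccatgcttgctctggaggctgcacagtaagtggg
Bcl6: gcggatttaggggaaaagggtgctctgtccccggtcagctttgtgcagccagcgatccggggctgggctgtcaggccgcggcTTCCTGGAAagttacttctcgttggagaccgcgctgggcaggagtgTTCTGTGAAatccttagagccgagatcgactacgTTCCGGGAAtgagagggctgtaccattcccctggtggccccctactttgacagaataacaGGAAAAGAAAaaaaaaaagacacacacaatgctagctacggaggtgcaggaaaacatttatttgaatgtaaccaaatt

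These letters are short and common, so a match is only a description of the window. TGACGTGG was held by 0.676% of the 32851 promoters, CCCNNGGG by 13.7%, TTCNNNGAA by 8.3% and the ETS-IRF composite element by 2.72%. CCCNNGGG was also found in an Irf8 promoter, and TTCNNNGAA in promoters of Irf8 and Bcl11a and at the first start of Bcl6. The octamer ATGCAAAT (1.74% of all promoters) was in none of the 13, and GAAAGTG, the core bound by PRDM1 (4.81%), was in those of Irf4 and of the second Ebf1 start.

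After removal of cells under 500 or over 25000 UMIs, over 15% mitochondrial UMIs or with 2 or more UMIs in marker genes of 2 lineages, 72378 cells of the 16 other samples, 38903 thymic WT cells and 19144 Mini cells remained. The 16 samples held 2109 to 8406 cells and 5405078 to 91172408 UMIs each, and 19.2% of the barcode combinations occurred in more than 1 WT sublibrary. Cells were clustered without the 10 genes, and clusters were called "X-like" from marker lists that do not hold them. Still, a cluster against other cells is not a test of any gene, so the values below are descriptions with no p-value. The level of a gene is its share of the UMIs outside ribosomal RNA, summed over the cells of a class and written in CPM, so that all genes together come to 1000000 CPM, and a sample counted where it had at least 20 cells of the class. A gene is called higher in a class when no sample of one class overlaps a sample of the other and the pooled levels differ by at least 2-fold. Clusters 12, 16, 17, 42, 43 and 49 were kept out of the B-like class, a choice made after seeing the data, and are described apart. Of these, 5 came mostly from 1 sample, while cluster 42 had 41.7% of its cells in CVS_C_3. Cluster 49 also got no B-like name, with 4 of 11 B cell markers raised. Its summed level of Cd79a, Cd79b and Ms4a1 was 378.2 CPM, against 1105 CPM in follicular B-like cells. Cluster 15, with 46.7% in CVS_S_2, stayed in the B-like class. CVS_S_5 stood apart with 62 B-like cells, 8 of them follicular, and a call that changes without it is given both ways.

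**Figure D1:**
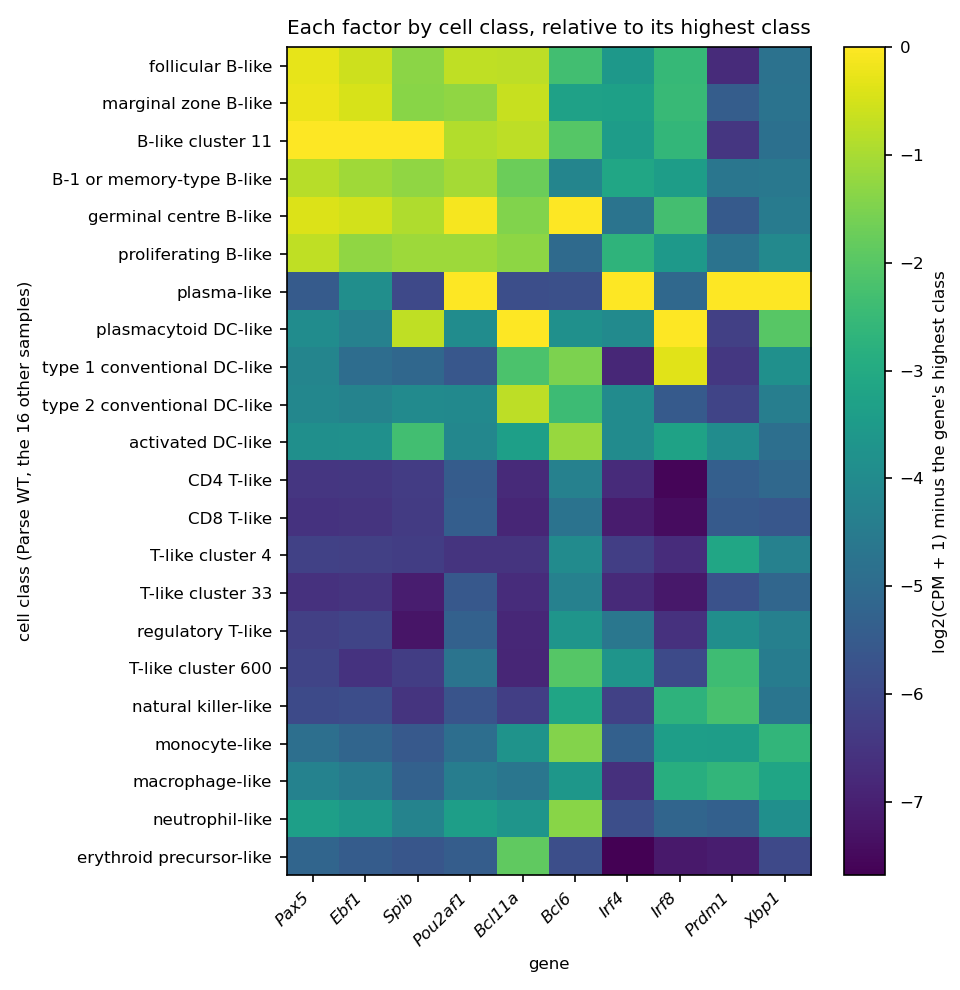
Level of each factor in 22 cell classes of the 16 other samples, as log2(CPM + 1) minus the value of the gene's highest class (columns, genes; rows, classes; yellow, 0). Pax5, Ebf1 and Spib are highest in B-like cluster 11, Bcl6 in germinal centre B-like cells, Pou2af1, Irf4, Prdm1 and Xbp1 in plasma-like cells, and Bcl11a and Irf8 in plasmacytoid DC-like cells.

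B-like cells were first set against T-like cells of the same 16 samples (27401 and 14717 cells) to see which factors mark the lineage as a whole. Of the 10 genes, 7 were called higher in B-like cells and none higher in T-like cells, where 3.57% of the 15997 genes tested were called higher in B-like and 3.25% higher in T-like cells (6.82% in either direction). The median gene differed by 0.03 on the log2 scale.

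Pax5 in B-like cells ranged over the 16 samples from 1325 to 2968 CPM with a median of 2290, and in T-like cells from 23.2 to 76.6 CPM with a median of 38.6. The lowest B-like value was that of CVS_S_5 and the next was 1678 CPM. The pooled level of Pax5 was 66.1-fold higher, and 24.8 to 101.5-fold within single samples. Ebf1 ranged from 2784 to 5920 CPM (median 4227) against 58.7 to 176.2 CPM (median 86.2), a 54.5-fold difference. Both commitment factors were thus far apart in the 2 classes in all 16 samples, while neither was at 0 in T-like cells. The summed level of the B cell markers Cd79a, Cd79b and Ms4a1 was 25.6 CPM in CD4 T-like and 1105 CPM in follicular B-like cells. The part of B cell RNA in the T-like values was not tested.

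Spib stood at 73 to 273.3 CPM (median 136.8) in B-like cells and at 0 to 6.65 CPM (median 3.35) in T-like cells, 53.1-fold apart. Pou2af1 stood at 417.2 to 693.9 CPM (median 494.8) against 11.6 to 33.2 CPM (median 19.2), 25.4-fold apart. Bcl11a stood at 219 to 1235 CPM (median 1045) against 10.8 to 59.8 CPM (median 19), 56-fold apart, with the lowest B-like value in CVS_S_5. None of these ranges overlapped.

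The interferon regulatory factors were also called. Irf8 stood at 217.4 to 540.3 CPM (median 389) in B-like and 9.58 to 46.5 CPM (median 15.6) in T-like cells, 22.3-fold higher. Irf4 stood at 45.4 to 133.6 CPM (median 88.4) against 8.99 to 32.5 CPM (median 16.6), 6.02-fold higher. Of the factors that both lineages use, Bcl6 was 3.39-fold higher pooled and higher in 15 of 16 samples, but its ranges overlapped (20.9 to 232.7 against 24.6 to 57.9 CPM) and it was not called. Prdm1 was 2.17-fold higher in T-like cells pooled, with overlapping ranges of 2.47 to 104.3 CPM in B-like and 8.99 to 61.9 CPM in T-like cells, and CVS_S_5 was the 1 sample in which B-like cells had more. Xbp1 was close in both, at medians of 20.5 and 18.3 CPM.

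To set levels of different genes side by side they were divided by length, as a description only, since UMI counts need not scale with length. Per kilobase of exon, follicular B-like cells held 488 CPM of Ebf1, 301 of Pax5, 219 of Pou2af1, 91.7 of Bcl11a, 60.5 of Irf8 and 48.8 of Spib. On the same scale Irf4 (17.6), Bcl6 (17.3) and Xbp1 (6.38) were low and Prdm1 was at 0.504 CPM per kilobase. In plasma-like cells the order was Pou2af1 (365), Irf4 (215), Xbp1 (182), Prdm1 (72.4) and Ebf1 (49.9), followed by Irf8 (10.2), Pax5 (8.07), Bcl11a (2.66), Spib (1.59) and Bcl6 (1.41). Exon length takes no account of counts from introns, which are long in Ebf1 and Pax5. Per kilobase of the whole gene the follicular values were 23 CPM for Spib, 21.1 for Pou2af1, 21 for Irf8, 14.4 for Pax5, 12.6 for Bcl11a and 12.2 for Ebf1, so the order of these 6 depends on which length is used. In plasma-like cells the order on that scale was Xbp1 (113), Irf4 (59.4), Pou2af1 (35.3), Prdm1 (4.42) and Irf8 (3.55), followed by Ebf1, so it changed there too.

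Around the factors, 12 of 14 listed targets of Pax5 and Ebf1 were called higher in B-like cells, with a median log2 difference of 5.48. Of these, Cd79a, Cd79b, Ms4a1, Cd22, Blk, Fcrla, Cd72 and Blnk also named the B-like class and Cr2 named a subset, so their direction was partly set by the naming. Of 19 tested partner and antagonist factors, 4 were called higher (median 1.07). Pooled levels were 1251 against 27.9 CPM for Mef2c, 583.9 against 29.3 for Tcf4 (E2-2), 624.4 against 136.4 for Pou2f2 (Oct-2, the partner of Pou2af1) and 57.9 against 2.3 for Spi1 (PU.1, the relative of Spib). Id2, an inhibitor of E proteins, was called lower at 3.08 against 41.9 CPM. Of 19 tested secretory genes 2 were called higher and 2 lower.

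**Figure D2:**
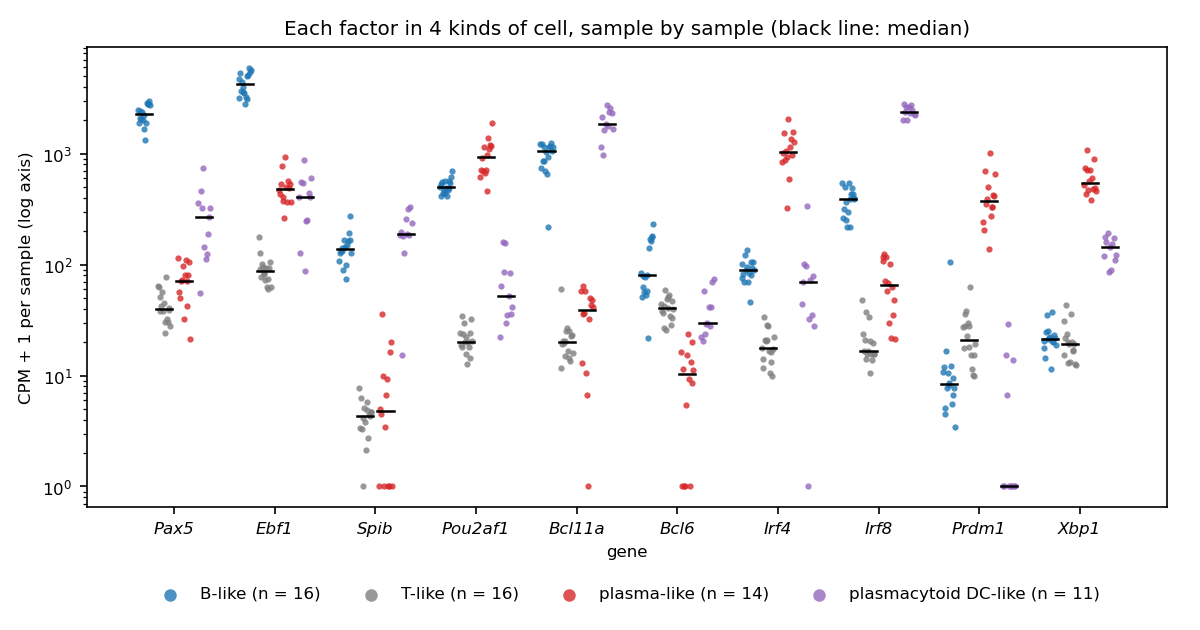
CPM + 1 of each factor (log axis) in B-like, T-like, plasma-like and plasmacytoid DC-like cells, 1 point per sample of the 16 other samples with at least 20 cells of the class and a black line at the median. Pax5, Ebf1, Spib and Bcl11a separate B-like from plasma-like cells, whereas Irf4, Prdm1 and Xbp1 lie higher in plasma-like cells in every sample shown.

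Within the B-like subsets Bcl6 was high in the germinal centre. In follicular B-like cells it ranged from 65.2 to 156.7 CPM over 15 samples (median 108.5) and in germinal centre B-like cells from 457.7 to 689.2 CPM over 8 samples (median 633.4). The germinal centre value was higher in 8 of 8 samples, by 3.95 to 9.89-fold (median 5.02), with no overlap. With each cell thinned to 1000 UMIs, 39.6% of 1180 germinal centre B-like cells and 9.87% of 10212 follicular cells held a Bcl6 UMI (exact 95% intervals 36.8 to 42.4% and 9.3 to 10.5%, counting error only). T-like cells, thinned alike, held one in 3.08%. Unthinned, the shares were 72.5%, 16.8% and 6.01%, and 100 germinal centre and 3100 follicular cells were too shallow to enter.

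B-like cluster 11, which got no subset name, held Bcl6 near the follicular level, at 57.4 to 156.7 CPM over 8 samples (median 128.6) and higher in 6 of 8. The remaining named subsets held less than follicular cells in most samples. Marginal zone B-like cells ranged from 34.3 to 95.2 CPM (median 54.4) and were lower than follicular cells in 12 of 14 samples. B-1 or memory-type B-like cells ranged from 12.1 to 69 CPM (median 30.5), lower in 15 of 15 samples with a median of 3.68-fold. In proliferating B-like cells, named from genes of the cell cycle, Bcl6 stood at 4.52 to 39.5 CPM (median 11.5) and was lower than in follicular cells in 7 of 7 samples.

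Pou2af1 was the second factor that was high in the germinal centre. It stood at 569.5 to 1109 CPM (median 901.5) there against 407.1 to 691.3 CPM (median 566.7) in follicular cells, higher in 8 of 8 samples by 1.38 to 2.48-fold. Plasma-like cells, at 458.5 to 1890 CPM (median 938), were also above follicular cells in 13 of 13 samples, by 1.07 to 2.94-fold. Marginal zone B-like cells were lower than follicular cells in 13 of 14 samples (median 371.6 CPM). Germinal centre and plasma-like cells overlapped, with the germinal centre value higher in 2 of 8 samples.

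Irf4 was low in the germinal centre, whereas Irf8 stayed near the follicular level. In germinal centre B-like cells Irf4 was at 10.1 to 41.8 CPM (median 34.3), lower than in follicular cells (58.7 to 109.3 CPM, median 82.1) in 8 of 8 samples by 1.5 to 5.82-fold. Irf8 in the same cells was at 396.6 to 653.8 CPM (median 471.7), against 284.4 to 559.4 CPM (median 425.7) in follicular cells, a small difference with overlapping ranges although 7 of 8 samples were higher. In plasma-like cells the order was opposite. Irf4 stood 20.5 to 58.7-fold above the germinal centre value of the same sample in 8 of 8 samples (median 35.4), and Irf8 was lower than in follicular cells in 13 of 13 samples (median 7.13-fold). In B-1 or memory-type B-like cells Irf4 was higher than in follicular cells in 12 of 15 samples (median 113.1 CPM) and Irf8 lower in 11 of 15 (median 310.9 CPM). The 3 clusters pooled in this class were not alike. Cluster 1 held 3341 of the 7664 cells, with 3 of 8 markers of the class and 3 of 5 follicular markers raised. Its Irf4 was at 69.6 CPM and its Irf8 at 454.3 CPM, within the range of the follicular clusters. Clusters 13 and 15 held Irf4 at 128.9 and 143.5 CPM and Irf8 at 167.2 and 122.9 CPM.

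**Figure D3:**
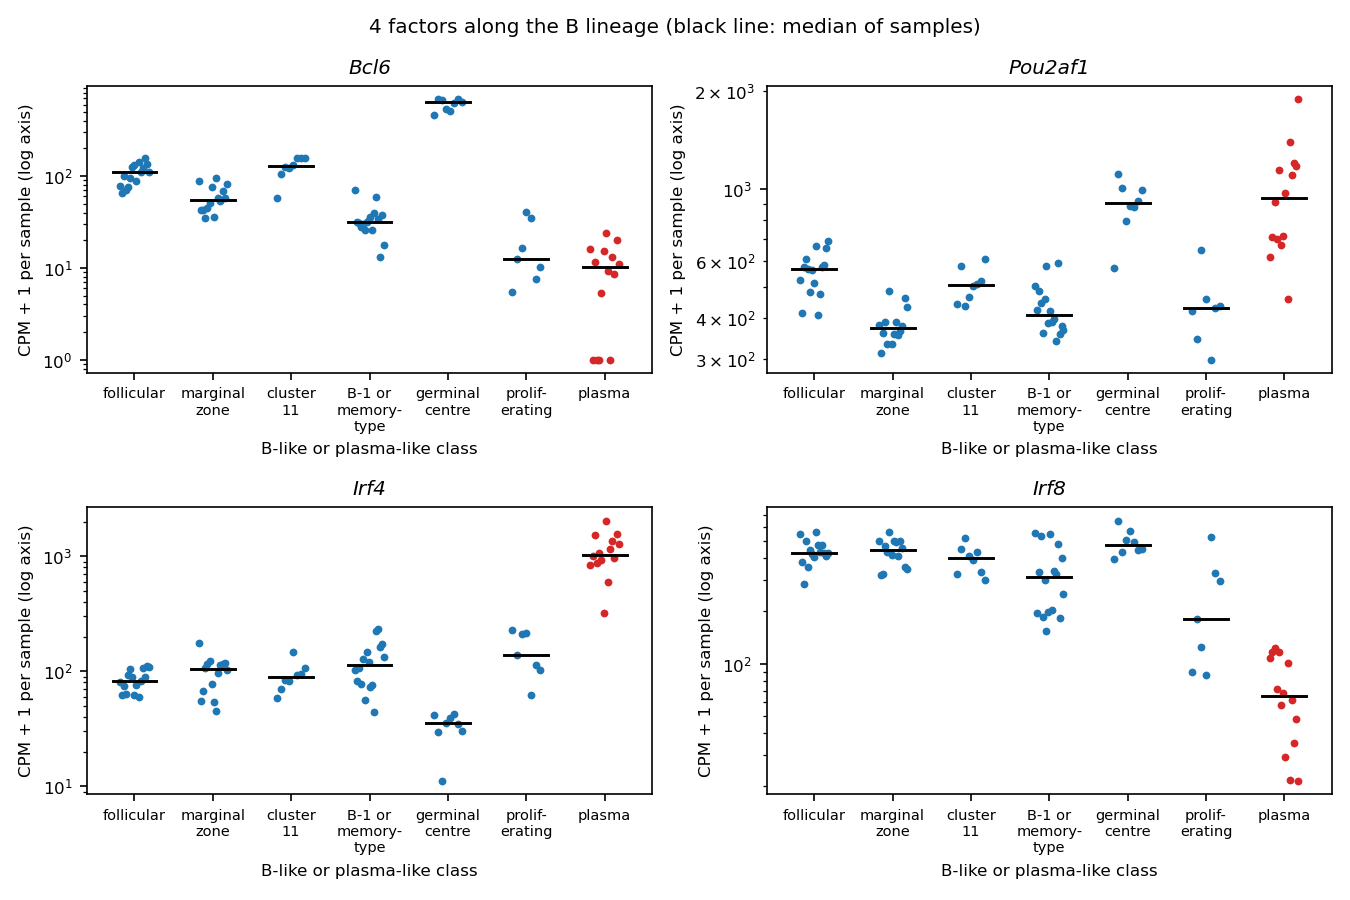
Bcl6, Pou2af1, Irf4 and Irf8 in 6 B-like subsets (blue) and plasma-like cells (red), as CPM + 1 on a log axis with 1 point per sample and a black line at the median. Bcl6 is highest and Irf4 lowest in germinal centre B-like cells, and plasma-like cells show the reverse together with low Irf8.

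Pax5 and Ebf1 were near the same level in 3 of the subsets. Their sample medians in follicular, marginal zone and germinal centre B-like cells were 2631, 2657 and 2422 CPM for Pax5 and 4821, 5152 and 4950 CPM for Ebf1. B-1 or memory-type B-like cells were lower, with medians of 1865 and 3626 CPM, and Ebf1 was below the follicular value in 14 of 15 samples. Proliferating B-like cells were below follicular cells for both factors in 7 of 7 samples, with medians of 2236 CPM for Pax5 and 2677 CPM for Ebf1. The highest levels were in B-like cluster 11, a cluster with Cplx2, Map2 and Cecr2 among its leading genes. There Ebf1 stood at 6202 to 8942 CPM, above follicular cells in 8 of 8 samples by 1.28 to 1.96-fold, and Pax5 at 3082 to 3621 CPM.

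Spib was also highest in cluster 11, at 235.1 to 592.6 CPM (median 315.6), which was 2.16 to 4.55-fold above follicular cells in 8 of 8 samples. In germinal centre B-like cells it was higher in 8 of 8 samples by 1.15 to 2.2-fold. Bcl11a had another order. It was lower than in follicular cells (886.4 to 1456 CPM, median 1241) both in B-1 or memory-type B-like cells in 15 of 15 samples (median 1.67-fold) and in germinal centre B-like cells in 8 of 8 samples (median 1.72-fold), and level with them in marginal zone B-like cells (median 1304 CPM).

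Prdm1 and Xbp1 were near the bottom of their range in every B-like subset. Sample medians of Prdm1 were 2.72 CPM in follicular, 6.74 in marginal zone, 10.5 in germinal centre and 11.9 in B-1 or memory-type B-like cells, and those of Xbp1 were 19.4, 22.3, 25.1 and 18.2 CPM in the same order. The Prdm1 values of several single samples rest on a few UMIs or 0.

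The step from B-like to plasma-like cells was compared over the 14 samples with at least 20 cells of each (963 plasma-like and 26511 B-like cells). The plasma-like class was named from Jchain, Sdc1, Tnfrsf17, Mzb1 and other markers, none of them one of the 10 factors. Of the 10, 3 were called higher in plasma-like cells and 5 lower, where 1.47% and 3.49% of the 14682 genes tested were called in those directions (4.97% in all). The median gene had a log2 difference of -0.42 (from -0.69 to -0.03 under other scalings, none of which turned the direction of a factor), and lower values below stand against that shift.

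The 3 plasma cell factors were higher in all 14 samples. Prdm1 ranged from 137.2 to 1007 CPM (median 371.2) in plasma-like cells and from 2.47 to 104.3 CPM (median 7.34) in B-like cells, 50-fold higher pooled and 9.66 to 263.1-fold within samples. The highest value of each class was that of CVS_S_5, without which the ranges were 137.2 to 691.9 and 2.47 to 15.5 CPM and the folds 18.3 to 263.1. Xbp1 ranged from 383.5 to 1088 CPM (median 540.2) against 10.4 to 36.6 CPM (median 20.7), 26.2-fold higher. Irf4 ranged from 320.2 to 2043 CPM (median 1032) against 45.4 to 133.6 CPM (median 88.4), 10.7-fold higher. For all 3 the lowest plasma-like sample lay above the highest B-like sample.

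The B cell factors were lower by unequal amounts. Pax5 was at 20.3 to 113.8 CPM (median 70.7) against 1325 to 2968 CPM, 35.8-fold lower. Spib at 0 to 35.1 CPM (median 3.74) was 34.8-fold lower, Bcl11a at 0 to 62.9 CPM (median 38.1) 28.7-fold lower, and Irf8 at 20.3 to 122.3 CPM (median 64.3) 5.08-fold lower. Bcl6 at 0 to 22.8 CPM (median 9.25) was 12.3-fold lower but not called, because in CVS_S_5 its 4 UMIs in plasma-like and 2 UMIs in B-like cells gave 22.8 and 20.9 CPM. Without CVS_S_5 it was called, which made 9 of 10. The share over all genes given above is that of the 14 samples, and no share is given for this count. Pou2af1 was 1.78-fold higher pooled and higher in 13 of 14 samples, and was not called.

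The 5 clusters of the plasma-like class were not alike in Pax5. The cluster with the highest Pax5 (281 of 983 cells) held it at 235.4 CPM, with 52.5% of the Pax5 UMIs of the class, and the other 4 clusters at 27.3 to 55.1 CPM. That cluster was picked for its Pax5, so a larger Pax5 fold without it was set by the choice. It also held the most Spib of the 5 clusters, at 19.8 CPM. Without that cluster, over 13 samples, Pax5 was 60.5-fold and Spib 94.8-fold lower than in B-like cells, and Bcl6 was called as well. The remaining calls were the same.

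Ebf1 was lower by much less than Pax5, at 262.4 to 933.3 CPM (median 479.9) in plasma-like cells against 2784 to 5920 CPM in B-like cells, 9.74-fold. The ratio of Ebf1 to Pax5 UMIs in plasma-like cells was 6.82 pooled and ranged from 3.86 to 18 over the 14 samples (median 7.95), and in B-like cells of the same samples from 1.6 to 2.42 (median 1.78). It was higher in plasma-like cells in 14 of 14 samples, with no overlap. Single samples held 2 to 30 Pax5 UMIs in plasma-like cells, and the ratios of 18 (YD_C_5) and 11 (CVS_S_1) rest on 2 each. By cluster the ratio was 2.93 in the one with the highest Pax5 and 7.64 to 20 in the other 4. Without that cluster, which was picked for its Pax5, it ranged from 5.5 to 25.5 over 13 samples (median 11.5). In the 21 other classes of the heat map the pooled ratio lay between 1.34 and 2.45. Of the 6 clusters kept out of the B-like class, 4 lay above this range, with 2.61 in cluster 17, 2.96 in cluster 42, 3.13 in cluster 43 and 3.93 in cluster 49, the last within the range of single plasma-like samples. The remaining 2 were at 1.88 (cluster 12) and 1.26 (cluster 16).

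**Figure D4:**
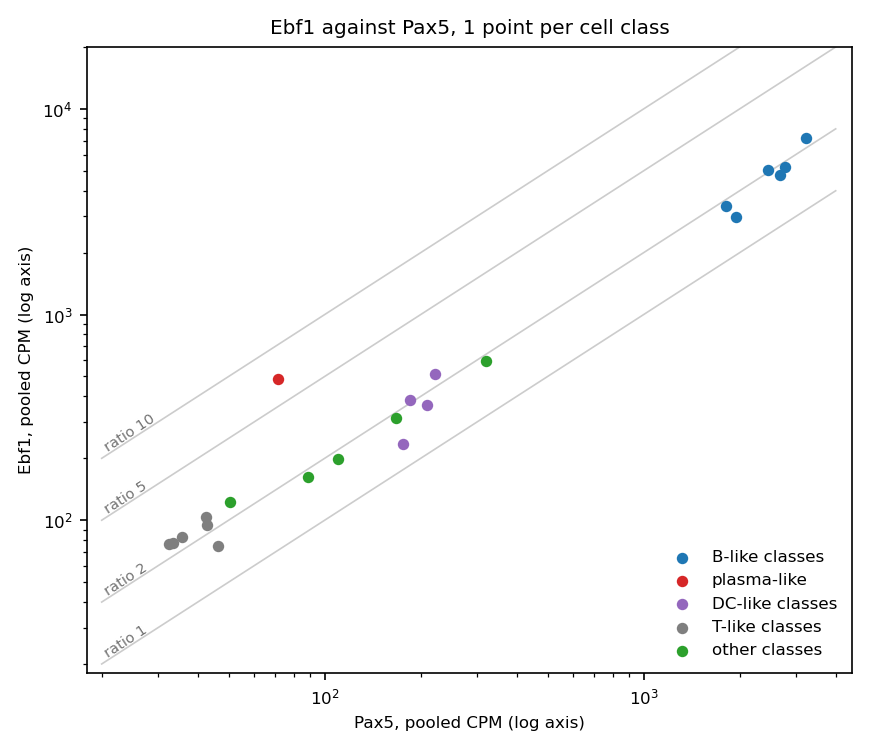
Pooled CPM of Ebf1 against Pax5 on log axes, 1 point for each of 22 cell classes of the 16 other samples, with grey lines at ratios of 1, 2, 5 and 10. Plasma-like cells (red) lie between the lines for 5 and 10 at 6.82, and the other 21 classes between 1.34 and 2.45. The 6 clusters kept out of the B-like class are not drawn.

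Counted by cell after thinning to 1000 UMIs, 7.38% of 813 plasma-like cells held a Pax5 UMI (exact 95% interval 5.68 to 9.4%), as against 87% of 22233 B-like cells (86.5 to 87.4%) and 3.5% of T-like cells. Before thinning the shares were 13.2% and 93.4%, and 170 plasma-like and 5168 B-like cells were too shallow to be thinned. An Ebf1 UMI was found in 33.5% of plasma-like cells (30.2 to 36.8%, 51.8% unthinned) and in 7.8% of T-like cells (14.4% unthinned), which should lack the gene. The median depth of the cells thinned was 2645 UMIs in plasma-like, 2277 in B-like and 2151 in T-like cells. Prdm1 was found in 28.4% of plasma-like cells (25.3 to 31.6%, 44% unthinned) and in 0.558% of B-like cells (0.464 to 0.665%, 1.53% unthinned), below the 1.55% of T-like cells. Irf4 was found in 49.3% of plasma-like and 1.28% of T-like cells, Xbp1 in 45.8% and 1.63%, and Pou2af1 in 52.3% and 2.13% (unthinned 63.8%, 65.2% and 70.4% in plasma-like cells).

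Of the 60 plasma-like cells with a Pax5 UMI, 21.7% also held a Prdm1 UMI, and of those without, 29%. Prdm1 was likewise found in 32.7% of the Irf4-positive and 24.3% of the Irf4-negative plasma-like cells. The summed level of the B cell markers Cd79a, Cd79b and Ms4a1 was 148 CPM in plasma-like and 1105 CPM in follicular B-like cells, and what part B cell RNA outside B cells had in the Pax5 UMIs was not tested. A further cluster of 153 cells from all 16 samples, with the markers of both B cells and plasma cells and a median of 7252 UMIs, was left unnamed. Its levels lay between those of both classes, at 1022 CPM for Pax5, 2166 for Ebf1, 297.2 for Prdm1, 862 for Irf4 and 289.8 for Xbp1, and whether its barcodes hold 1 cell or 2 was not tested.

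Among the other genes of the programme, 14 of 19 tested secretory genes were called higher in plasma-like cells and none lower, with a median log2 difference of 2.72 against the median of -0.42 over all genes. Pooled levels of Hspa5 (BiP, the chaperone of the endoplasmic reticulum) were 1203 against 150.5 CPM, of Sec24d (a coat protein of export vesicles) 506 against 10.3 CPM, of Pdia4 (a disulfide isomerase) 949.9 against 91.2 CPM and of Hyou1 563.5 against 58.4 CPM. Edem1, which acts in the disposal of misfolded proteins, was at 938 against 112.4 CPM, but it also named the class. Derl1, Derl2, Sdf2l1, Syvn1 and Ssr1 were not called.

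Targets of Pax5 and Ebf1 went the other way, with 9 of 14 called lower in plasma-like cells, none higher and a median of -3.27. Of these 9, Cd79a, Cd79b, Cd22, Cd72, Ms4a1 and Blk also named the B-like class and Cr2 a subset. Their direction was partly set by the naming. Cd22, an inhibitory coreceptor of the B cell receptor, was at 30.9 against 1024 CPM and Ciita, the master regulator of MHC class II, at 28.7 against 775.9 CPM. Blnk (570.3 against 1079 CPM), Fcrla (69.3 against 132.7 CPM) and Cd24a (60.3 against 55.4 CPM) were among the 5 that were not called. Of 19 tested partner factors 4 were called lower and none higher (median -1.06). Bach2, a repressor of Prdm1, was at 235.2 against 2903 CPM, Ets1 at 259.3 against 1099 CPM, Zeb2 at 41.3 against 452.2 CPM and Pou2f2 at 223.4 against 624.9 CPM.

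Plasmacytoid dendritic cells share several of these factors with B cells, and were compared with B-like cells over 11 samples (508 and 22058 cells). Of the 10 genes, 2 were called higher in plasmacytoid DC-like cells and 3 lower, where 2.90% and 3.94% of the 14181 genes tested were called in those directions (6.84% in all). The median gene differed by -0.15 on the log2 scale.

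Irf8 ranged from 1993 to 2793 CPM (median 2367) in plasmacytoid DC-like cells and from 253 to 504 CPM (median 391.4) in B-like cells, 6.38-fold higher pooled and 4.7 to 10.4-fold within samples. Xbp1 ranged from 84.2 to 190.9 CPM (median 143.1) against 13.3 to 36.6 CPM (median 20.6), 6.44-fold higher. Bcl11a at 961.3 to 2748 CPM (median 1839) was higher than in B-like cells (746.6 to 1235 CPM) in 11 of 11 samples, by 1.95-fold pooled, and was not called. Spib was close to the B-like level, at 14.4 to 328.3 CPM (median 189.2) and 1.31-fold higher.

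Pou2af1, Pax5 and Ebf1 were called lower in plasmacytoid DC-like cells. Pou2af1 was at 21.5 to 157.8 CPM (median 51.1), 8.33-fold lower, Pax5 at 53.9 to 744 CPM (median 267.8), 11.7-fold lower, and Ebf1 at 85.9 to 870.3 CPM (median 408.1), 12.6-fold lower. The summed level of Cd79a, Cd79b and Ms4a1 in these cells was 115.3 CPM, against 148 CPM in plasma-like cells, and the Ebf1 to Pax5 ratio of 1.74 lay within that of the B-like subsets. The part of B cell RNA in these values was not tested. Bcl6 was lower in 11 of 11 samples, at 19.6 to 73.5 CPM against 50.4 to 232.7 CPM, and was not called. Prdm1 was at 0 in most of the 11 samples (median 0, highest 28.1 CPM). Irf4 was not called either, at 0 to 336.9 CPM (median 68.6) against 45.4 to 121 CPM, with overlapping ranges.

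Of 19 tested partner factors 3 were called higher and 5 lower in plasmacytoid DC-like cells (median -0.58). Tcf4, the E protein that the lineage depends on, stood at 5412 against 538.5 CPM, but Tcf4 and Runx2 also named the class. Of 14 targets of Pax5 and Ebf1, 10 were called lower and none higher (median -3.25), and of 19 secretory genes 2 were called higher and 1 lower (median 0.85), as against 14 in plasma-like cells. Among the targets called lower, Cd79a, Cd79b, Cd22, Cd72, Ms4a1 and Blk again named the B-like class and Cr2 a subset.

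The dendritic classes also differed from each other. In type 1 conventional DC-like cells (245 cells), Irf8 was at 1932 CPM pooled with a technical SD of 164 over 8 sublibraries and at 1347 and 1726 CPM in the 2 samples with at least 20 cells, whereas Irf4 was at 8.32 CPM. In type 2 conventional DC-like cells, Irf4 ranged from 0 to 107.5 CPM over 16 samples (median 61) and Irf8 from 0 to 125.1 CPM (median 43.2). Bcl11a was high in type 2 cells (234.8 to 1497 CPM, median 1042) and 453.7 CPM in type 1 cells. Bcl6 was at 204.2 CPM in type 1, 58.9 to 176.4 CPM (median 99.3) in type 2 and 254.7 CPM in the 144 activated DC-like cells, in which no sample reached 20 cells. Spib, at 211 CPM in plasmacytoid DC-like cells, was at 9.24 CPM in type 1 cells, 21.2 in type 2 cells and 69.5 in activated DC-like cells.

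In T-like cells of the same samples, the factors of late B cells were used by particular classes. T-like cluster 600, with Foxp3, Tox2 and Maf among its leading genes, held Bcl6 at 54.5 to 262.5 CPM over 14 samples (median 154.8), above CD4 T-like cells (median 24.8) in 13 of 13 samples. The same cluster held Irf4 at up to 157.5 CPM (median 73.7) and Prdm1 at up to 165.2 CPM (median 64.5), both above CD4 T-like cells in 13 of 13 samples. For Prdm1 that was 3.34 to 16.1-fold. Regulatory T-like cells held Irf4 at 10.2 to 76.6 CPM (median 31.8), above CD4 T-like cells in 14 of 15 samples, and Prdm1 at a median of 25.4 CPM (13 of 15).

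Natural killer-like cells held Irf8 at 175.2 to 561.4 CPM (median 382.9), above CD4 T-like cells in 12 of 12 samples and with a median close to that of B-like cells. They held Prdm1 at 0 to 145.9 CPM (median 89.9), higher in 11 of 12 samples. Monocyte-like cells held Bcl6 at 94.5 to 366.5 CPM (median 234) and Xbp1 at 55.5 to 134.8 CPM (median 99.7), and neutrophil-like cells held Bcl6 at 156.7 to 398.9 CPM (median 222.5). Macrophage-like cells held Irf8 at 203.9 to 628.6 CPM (median 354.1) and Prdm1 at 22.3 to 157.1 CPM (median 52.9). Erythroid precursor-like cells held Bcl11a, a known regulator of globin genes, at 272.2 to 909.9 CPM (median 520).

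The 4 thymic samples of each kit were described apart, over double-negative, proliferating, double-positive, selected double-positive and mature single-positive thymocyte-like cells. Bcl6 in double-positive thymocyte-like cells was 209.7, 189.9, 217.1 and 155.4 CPM in the 4 WT samples and 240.4, 253.8, 231.1 and 269.5 CPM in the 4 Mini samples. In mature single-positive thymocyte-like cells it was 57.9, 62.9, 66.2 and 67.4 CPM in WT and 61.2, 82.1, 59.4 and 76.2 CPM in Mini. The mature cells were lower in 4 of 4 samples of each kit, with medians of 3.15-fold and 3.71-fold. Double-negative thymocyte-like cells lay between, at 78 to 97.1 CPM in WT and 95.4 to 126.3 CPM in Mini.

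Irf4 ran the opposite way. It was 4.54, 3.88, 3.41 and 4.73 CPM in double-positive cells of the WT samples and 4, 2.9, 1.88 and 1.36 CPM in those of the Mini samples. In selected double-positive cells it was 14.6 to 27.4 CPM and 10.9 to 19.6 CPM, and in mature single-positive cells 59.2, 71.6, 36 and 66.5 CPM in WT and 66.3, 24.4, 35.1 and 60.5 CPM in Mini. Cluster 56, which had markers of selection raised but Rag1 and no selection marker among its 10 leading genes, was left without a class name, a choice made after seeing the data, and held Irf4 at 7.36 to 17.6 CPM in WT and 6.52 to 18.3 CPM in Mini. The 3 named classes stood in this order in all 4 samples of each kit, with mature cells above double-positive cells by 10.6 to 18.4-fold in WT and 8.41 to 44.5-fold in Mini.

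Bcl11a was highest in double-negative cells, the earliest of these 5 classes. In the Mini samples they held 69.3, 68.5, 34.6 and 167.3 CPM, and double-positive cells held 0.151 to 1.02 CPM. In the WT samples the values were 79.6, 105.9, 104.7 and 72.8 CPM and 7.13 to 9.87 CPM. Xbp1 was also highest in double-negative cells, at 38.3 to 78 CPM in WT and 43.1 to 67.5 CPM in Mini, and mature cells were below double-positive cells in 4 of 4 samples of each kit.

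The B cell factors themselves showed a difference between the kits. In double-positive cells Pax5 was 23.5, 23.5, 14.6 and 14.3 CPM in the 4 WT samples and 0.235, 0.854, 0.94 and 0.302 CPM in the 4 Mini samples, and Ebf1 was 34.8 to 50.6 CPM and 1.36 to 6.49 CPM. After thinning, a Pax5 UMI was found in 2.03% of 12266 WT and 0.0907% of 7719 Mini double-positive cells (3.68% and 0.123% unthinned). The summed level of Cd79a, Cd79b and Ms4a1 in these cells was 14.6 CPM in WT and 4.18 CPM in Mini. The WT thymic samples shared their pool with the B cell-rich other samples and the Mini samples did not, and the part of B cell RNA in the WT values was not tested. Bcl6 was instead higher in all 4 Mini samples, and the ranges of Irf4 and Xbp1 overlapped. The kits were run on different mice, so kit and mouse cannot be told apart.

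**Figure D5:**
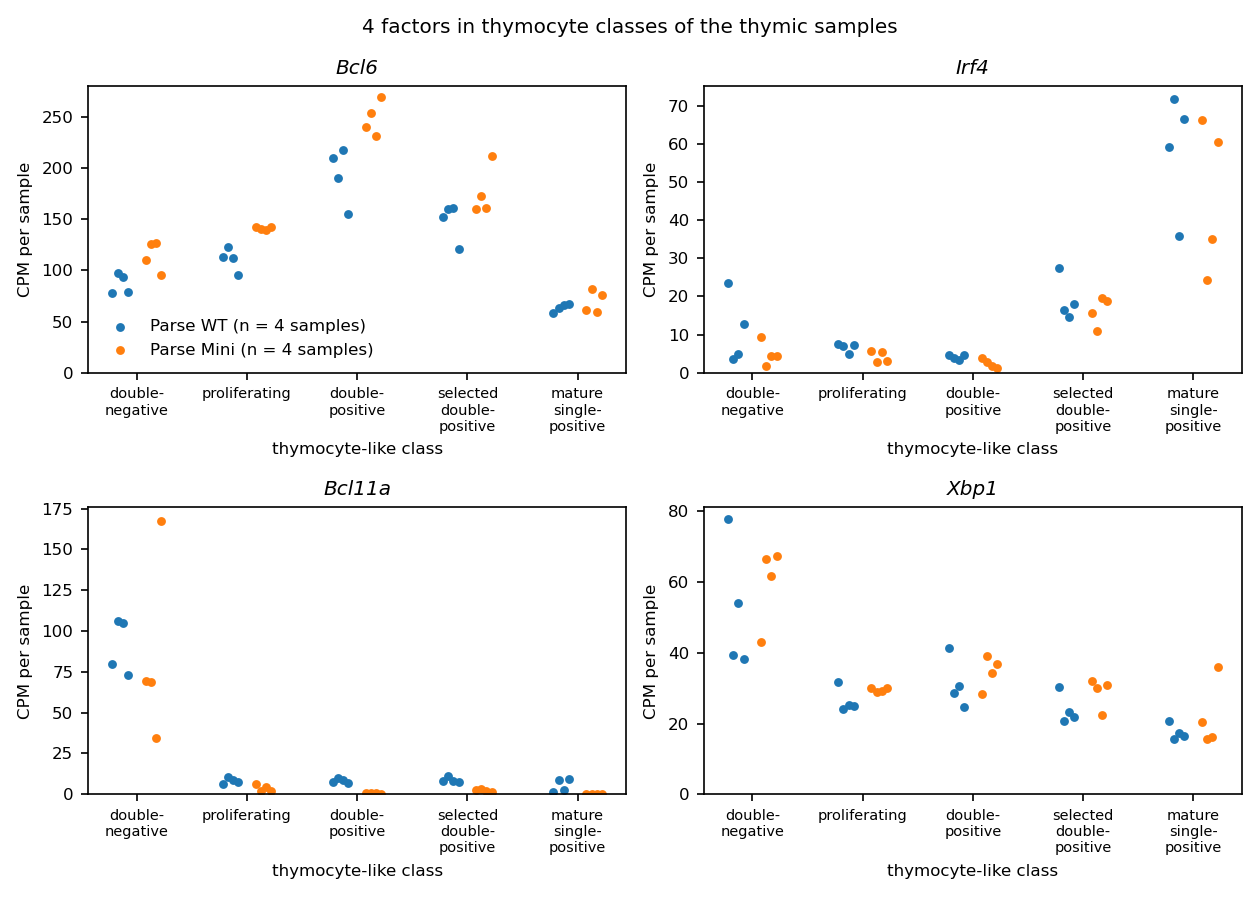
CPM of Bcl6, Irf4, Bcl11a and Xbp1 in 5 thymocyte-like classes, 1 point for each of the 4 WT (blue) and 4 Mini (orange) thymic samples. Bcl6 peaks in double-positive cells, Irf4 in mature single-positive cells, and Bcl11a and Xbp1 in double-negative cells in both kits.

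The kept B-like classes were rare in the thymus, with 83 cells in WT and 41 in Mini. The WT thymic samples also held 182 cells of cluster 42 and 8 of cluster 43, 2 of the 6 clusters kept out of the B-like class, and these are not in the values given here. In the kept B-like cells Pax5 (1451 and 1906 CPM), Ebf1 (2913 and 2932 CPM), Pou2af1 (450 and 432.1 CPM) and Irf8 (409.6 and 339.5 CPM) were within the range of B-like cells of the other samples, but for Pax5 in WT only through CVS_S_5, without which that range began at 1678 CPM. Spib (171.9 and 131.2 CPM) was within the range too. Bcl11a, at 591.6 and 563.3 CPM, was below every other sample but CVS_S_5, the next lowest being 659.4 CPM. The subsets were not mixed alike, since B-1 or memory-type B-like cells made up 43 of the 83 WT and 20 of the 41 Mini cells but 7664 of 27401 in the other samples. Bcl11a in that subset was at 386.9 and 359.5 CPM, within the 250 to 1047 CPM of the other samples. Of its 43 WT cells 41 lay in cluster 1, however, where the other samples held Bcl11a at 815.7 CPM. They held 432.5 and 541.8 CPM in clusters 13 and 15. In thymic follicular B-like cells Bcl11a was at 860.2 and 1300 CPM (28 and 13 cells). Xbp1 (5 UMIs in WT, 3 in Mini) and Prdm1 (4 and 0) rest on few counts. Irf4 was higher, at 242.7 CPM in WT (48 UMIs) and 270.1 CPM in Mini (35 UMIs), where B-like cells of the 16 other samples, pooled by sample, reached at most 133.6 CPM. Within subsets it was at 257.9 and 275.6 CPM in thymic B-1 or memory-type B-like cells, against 42.9 to 230.3 CPM in the 16 other samples, and at 203.7 and 278.6 CPM in thymic follicular B-like cells (9 and 6 UMIs), against 58.7 to 109.3 CPM in 15 samples. Cluster 1, which held 41 of the 43 WT thymic B-1 or memory-type B-like cells, was at 69.6 CPM in the other samples. Clusters 13 and 15 were at 128.9 and 143.5 CPM there. Follicular cluster 3 of the other samples was at 213.5 CPM. By sample Irf4 was 111.4, 213.1, 286.8 and 319.5 CPM in WT and 189.1, 270, 313.2 and 271.8 CPM in Mini, from 9 to 26 cells and 3 to 24 UMIs a sample. The lowest WT sample was thus within the range of the 16 other samples, and the remaining 7 were above it. Bcl6 in thymic B-like cells rests on 9 UMIs in WT and 3 in Mini.

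The few thymic plasma-like cells, 7 in WT and 4 in Mini, held Irf4 at 1785 and 2412 CPM, Xbp1 at 595.1 and 529.6 CPM and Prdm1 at 428.5 and 235.4 CPM, in the range of the plasma-like cells elsewhere for Xbp1 and Prdm1. For Irf4 the Mini value was above that range. The WT value was within it only through CVS_S_5, without which the range ended at 1551 CPM. Ebf1 in thymic plasma-like cells was at 119 CPM in WT (5 UMIs) and 0 in Mini (limit of 3 counts, 88.3 CPM). Both were below the 262.4 to 933.3 CPM of plasma-like cells elsewhere. Pax5 had 4 UMIs in WT (95.2 CPM) and 0 in Mini. The high Ebf1 to Pax5 ratio of plasma-like cells elsewhere was thus not seen in WT, on these few UMIs, and Mini gave no ratio. Thymic plasmacytoid DC-like cells (101 in WT, 31 in Mini) held Irf8 at 813.1 and 1477 CPM and Bcl11a at 475.1 and 1113 CPM, where those of the other samples held 2457 and 2067 CPM pooled. By sample Irf8 was 725.3 to 1610 CPM in WT, below the 1993 to 2793 CPM of the other samples, and 960.5 to 2944 CPM in Mini, where the highest (5 cells, 81 UMIs) was above them. Bcl11a was 403.8 to 843.3 CPM in WT, below the 961.3 to 2748 CPM of the other samples, and 862.9 to 1745 CPM in Mini, overlapping them. Their defining marker Siglech, pooled, was also lower, at 1128 and 1399 CPM against 2426 CPM, and the T cell marker Cd3e was higher, at 159.9 and 113.1 CPM against 18.3 CPM. The part of thymocyte RNA in the lower values was not tested. No Cd79a, Cd79b or Ms4a1 UMI was found in the 31 Mini cells. Thymic type 1 conventional DC-like cells held Irf8 at 610.2 and 666 CPM and Bcl6 at 196.8 and 302 CPM.

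Across the 22 classes of the other samples, the genes with a pattern most like each factor were found by Pearson's r of log2(CPM + 1) over 10745 genes, as a description over classes that share libraries. For Pax5 these included Fcmr (0.99) and Cd22 (0.98), and for Ebf1 Srpk3 and Ms4a1 (0.99). Spib was most like Siglecg (0.95), Bcl11a most like Gm12064 (0.98), Cd180 (0.91) and Lmo2 (0.90), and Pou2af1 most like Dennd5b and 2010007H06Rik (0.97). Xbp1 was most like Ssr3 and Uso1 (0.87) and Rrbp1 (0.86), genes of the secretory pathway, and Irf4 most like St14 (0.89), Iglc3 and Ighm (0.88). Irf8 was most like Pank1 (0.88), and Bcl6 (Zfand3, 0.85) and Prdm1 (Chpf2, 0.77) had looser matches. Among the 10 factors themselves, Ebf1 and Pax5 were most alike (0.98), Irf4 and Pou2af1 reached 0.77 and Prdm1 and Xbp1 0.56, while Prdm1 ran against Bcl11a (-0.59), Spib (-0.43) and Pax5 (-0.39).

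The clusters kept out of the B-like class carried their own levels of these factors. Cluster 17, with 2376 cells in CVS_C_5, held Irf4 at 200.8 CPM, 2.18-fold above follicular B-like cells of that sample, and less Irf8 (76.7 against 356.9 CPM), Bcl11a (301.2 against 1196 CPM) and Bcl6 (11.8 against 74.4 CPM), with Pax5 at 1471 against 2481 CPM. Cluster 43, with 2746 cells in CVS_C_3, held Pou2af1 at 1097 CPM, 1.91-fold above follicular cells of its sample, with Bcl11a 3.44-fold and Bcl6 3.01-fold lower. In it, 94.5% of 2435 heavy chain variable segment UMIs came from Ighv1-67, against 2.27% in follicular B-like cells. Clusters 42 and 43 together made up 71.6% of the cells of CVS_C_3, 2.12% of cells in the 9 wells of the same plate columns (3 of them thymic) and 0.0362% of cells in the 36 remaining wells. They made up 0.488% of the WT thymic cells, and all 190 of these lay in the 3 thymic wells of those columns. Cluster 49, with 1909 cells in CVS_S_5 and no B-like name, held Prdm1 at 84.1 CPM and Pax5 at 871.6 CPM.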

How the data were processed

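Single-cell expression was measured with the Parse WT and Mini kits. According to the methods of the study, the authors processed each sublibrary with split-pipe against the mm10 reference from Ensembl and combined the results into 1 matrix per kit. No version of split-pipe is stated there. The deposited values are counts of UMIs per gene and cell, raw and not normalized, and all deposited count columns were used. The 10x data of the study were not used here.

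The limits on UMIs and mitochondrial share were those of the study (500 to 25000 UMIs, at most 15% mitochondrial). Cells with at least 2 UMIs in markers of 2 lineages were removed as likely doublets. The filter on 2 lineages took 9018 of 81396 cells of the other samples (2.92 to 24.4% by sample). It took 466 of 39369 thymic WT and 129 of 19273 Mini cells. No doublet caller was run, whereas the study also removed doublets called by scDblFinder, so the cells kept here are not those of the study. The filter on 2 lineages cannot find doublets within a lineage or with cells outside its marker lists. After log normalization, Leiden clusters were found at resolution 3 from 3000 variable genes without the 10 factors, 30 components and 15 neighbours. Of these clusters 3 were clustered again, which made 78 in all. A cluster was named only where at least 3 markers of a list were raised at least 1.25-fold. Some clusters that met this were left unnamed, and 6757 cells of the other samples had no name. Cluster 2, for example, had 6 of 9 neutrophil and 9 of 11 B cell markers raised and held Pax5 at 1067 CPM. UMIs were summed by sample and class and divided by all UMIs outside ribosomal RNA. Genes with at least 50 UMIs in both classes together were compared, and a gene was called where no sample of a class overlapped the other and the pooled levels differed by at least 2-fold. Shares of cells used cells thinned to 1000 UMIs and have exact (Clopper-Pearson) 95% intervals, which like the limit of 3 counts behind a value of 0 cover counting error only. No p-value is given, since the labels map sublibraries and not tissue samples to groups and cells are not replicates. Sublibraries are technical splits of the same pool.

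The 10 factors, the marker lists and the lists of partner factors, secretory genes and targets were chosen with earlier results of these data known. All 10 factors are given in the 3 comparisons of B-like with T-like, plasma-like and plasmacytoid DC-like cells; other genes are named from those lists or from the 3 genes most like each factor, among genes with at least 20 CPM in a class and 100 UMIs in all. Genes of these lists that are not named are covered only by the counts, and 1 of them is not reported here. Of the lists, 19 of 20 partner factors, 19 of 20 secretory genes and 14 of 14 targets passed the filter on low counts. The call procedure was tested on simulated data. Alternatives were another denominator, size factors, a lower UMI filter, more cells per sample, other thinning depths, other handling of the 6 clusters kept out of the B-like class, leaving out a plasma-like cluster, and leaving out each sublibrary or sample. The analysis ran in Python 3.11.15 with scanpy 1.11.5, leidenalg 0.10.2, igraph 0.11.9, scikit-learn 1.9.0, pandas 2.3.3, scipy 1.17.1, matplotlib 3.10.9 and numpy 2.4.6.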

Additional observations from a re-analysis of the deposited data

Results flagged for a closer look

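Of 60 sets of levels (each factor in B-like, plasma-like, plasmacytoid DC-like and T-like cells over the WT sublibraries, and in double-positive thymocyte-like cells over the 4 thymic samples of each kit), 10 held 1 sublibrary that stood apart from the others by Dixon's criterion. Chance flags about 1 set in 20 only where values have a like spread and sets are independent. Neither held here, since the factors share cells and sublibrary 9 held 391 cells of the other samples against 8212 to 10326 elsewhere. The count of 10 is thus not set against that rate. In B-like cells sublibrary 9, which held 391 cells in all and 118 B-like cells, had Pax5 at 2754 CPM against 2382 to 2464 in the others, Spib at 210.3 CPM against 157.5 to 166.6, Bcl11a at 1155 CPM against 979.8 to 1027 and Irf8 at 430.8 CPM against 349.7 to 379.8. In its 87 T-like cells Pax5 was at 16.99 CPM (3 UMIs; others 32.35 to 44.94), Ebf1 at 11.33 CPM (2 UMIs; others 74.47 to 95.47), Pou2af1 at 33.98 CPM (6 UMIs), Bcl11a at 0 (others 13.96 to 22.31) and Bcl6 at 62.29 CPM (11 UMIs; others 26.16 to 38.28). In plasmacytoid DC-like cells Irf4 in sublibrary 3 was at 125.6 CPM, from 28 UMIs, against 34.89 to 68.9 CPM. The T-like values of sublibrary 9 rest on 11 UMIs or fewer, and no cause was tested.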

How the results depend on the processing

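No called value changed direction under any alternative, and of the other ratios only Prdm1 in plasmacytoid DC-like against B-like cells crossed 1 (0.62, and 1.54 against follicular cells alone). The 7 calls of B-like against T-like cells stayed at 7 when each sublibrary was left out in turn, those of plasma-like against B-like cells stood at 8 to 9, and those of plasmacytoid DC-like against B-like cells at 5. The shares of all genes called under these settings are not given, so these counts show only how far the calls of the factors moved. The calls that were gained concern Bcl6 and Prdm1. Bcl6 in plasma-like cells was called lower with all UMIs as the denominator (ratio 0.0675), without sublibrary 4 or 6, without CVS_S_5, against follicular cells alone (0.0757), with the 6 clusters kept out counted as B-like (0.107) and without the plasma-like cluster of highest Pax5 (0.0613). With follicular cells alone set against T-like cells, Bcl6 (3.34-fold) and Prdm1 (ratio 0.165) were called, and Bcl6 in plasmacytoid DC-like cells was called at 50 cells per sample (0.259). The settings on follicular cells, the 6 clusters kept out, the plasma-like cluster and left-out samples were chosen after seeing the data. The share of cells with a UMI moved with depth. Thinned to 2000 UMIs and not thinned, Pax5 was found in 96.9% and 93.4% of B-like and 11.4% and 13.2% of plasma-like cells, and Prdm1 in 1.37% and 1.53% of B-like and 44.5% and 44% of plasma-like cells. The replicate numbers in the labels name sublibraries, splits of 1 pool that each hold every class, and pair no groups, so they were not used for pairing. Classes were paired within tissue samples as ratios only, and no test was run on them. Counts are small for Spib and Bcl6 in plasma-like cells, with 0 to 4 and 0 to 6 UMIs in single samples, and for Spib in T-like cells (0 to 18 UMIs).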

Other observations

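The labels give no group for the 16 other samples, so levels in B-like cells are listed by the name in the cell table. Pax5 was 2487, 1871, 2439, 2107 and 2069 CPM in CVS_C_1 to CVS_C_5, 2359, 1997, 2220, 1678, 1325 and 1902 CPM in CVS_S_1 to CVS_S_6, and 2832, 2809, 2771, 2968 and 2752 CPM in YD_C_1 to YD_C_5. Bcl6 was 82.4, 50.4, 78.7, 61.8 and 55.5 CPM, then 76.1, 52.2, 79, 56.8, 20.9 and 139.6 CPM, and then 168.3, 161.9, 175.9, 178.9 and 232.7 CPM in the same order. Within follicular B-like cells alone, Bcl6 ranged from 65.2 to 156.7 CPM over 15 samples. No comparison between the names was made.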
